A study of Mus musculus with 10 samples.

Results

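Voltage-gated potassium channel subunits of the Kv1 and Kv2 families, with silent and beta subunits that assemble with them, were followed in RNA of the mouse trigeminal ganglion. The members were 9 genes chosen by name: Kcna1, Kcna2, Kcna4 and Kcna6 (pore subunits Kv1.1, Kv1.2, Kv1.4 and Kv1.6), Kcnb2 (pore subunit Kv2.2), Kcns1 and Kcns3 (silent subunits Kv9.1 and Kv9.3), and Kcnab1 and Kcnab2 (cytoplasmic subunits Kv beta 1 and Kv beta 2). The choice was made with earlier results of these data known. All 9 were found by Ensembl identifier among the 26411 genes of the surgery table and the 55886 genes of the injection table. The trigeminal ganglion carries the cell bodies of facial sensory neurons, and its RNA was sequenced in 10 bulk libraries from 2 experiments. In the surgery experiment, 3 libraries came from sham-operated mice and 3 from mice with the operation labelled pIONT, all on day 10. In the injection experiment, 2 libraries followed phosphate-buffered saline (PBS) and 2 followed urocortin 1 (UCN1), a peptide of the corticotropin-releasing factor family, injected into the ganglion 6 hours earlier. The labels used here give no strain, sex or age, name no allele, and do not say whether a library is 1 animal or a pool, and a p-value here covers just the spread among these libraries, which may be technical.

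Kv1 channels are tetramers of pore subunits that open at low depolarisation and hold back repetitive firing; on myelinated axons they gather beside the nodes of Ranvier in a complex with Caspr2 and contactin-2. Kv beta subunits bind the cytoplasmic side of Kv1 tetramers, help them reach the axon and, in the case of Kv beta 1, speed their inactivation. Kv2 channels carry slow delayed-rectifier current in cell bodies, and silent subunits, which form no working channel alone, join Kv2 tetramers and shift their gating. In rats, loss of Kv1.2 and Kv9.1 from dorsal root ganglion neurons after nerve injury is known from other work.

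Depth recovered from the values was 24.1 to 29.6 M reads (M, 1e6) in genes in the surgery experiment and 15.7 to 17.0 M in the injection experiment. Levels are in FPKM, that is, reads per length of the gene and per depth of the library. A gene is said to be called, and to rise or fall, where limma on log2(FPKM + 0.5) gave an adjusted p under 0.05 over all genes tested in that table; fold changes on this scale understate the change of low genes. Neuronal markers of the ganglion were present in every library, for instance Tubb3 at 1125 to 2255 FPKM in the surgery libraries and 977 to 1127 FPKM in the injection libraries. Libraries that stood apart were sham 1, with a summed FPKM of 767 over 7 pituitary genes against 80.8 and 255 in the other sham libraries, and pIONT 2, with 866 over 11 macrophage genes against 402 and 358 in the other pIONT libraries. In the injection experiment the pituitary genes summed to 124 in each PBS library and to 9.14 and 9.61 in the UCN1 libraries. No member was at 0 in any library, and the reads behind a member ran from 192 for Kcna4 in PBS 1 to 29646 for Kcnab2 in sham 2.

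RefSeq promoters, 250 bases before to 50 after a transcript start (build GRCm38.p6), were held for 7 of the 9 genes in 12 windows; Kcna1 and Kcnb2 had none in the table. The windows shown belong to the 3 members with the largest falls after pIONT (Kcns3, Kcna2 and Kcns1) and to the member that was not called (Kcna6), with the GC box GGGCGG, read on both strands, in capitals. They lie at chr12:11150793-11151092 (minus strand, the first of a pair for Kcns3), chr3:107101317-107101616 (plus strand), chr2:164171064-164171363 (minus strand) and chr6:126740625-126740924 (minus strand).
Kcns3: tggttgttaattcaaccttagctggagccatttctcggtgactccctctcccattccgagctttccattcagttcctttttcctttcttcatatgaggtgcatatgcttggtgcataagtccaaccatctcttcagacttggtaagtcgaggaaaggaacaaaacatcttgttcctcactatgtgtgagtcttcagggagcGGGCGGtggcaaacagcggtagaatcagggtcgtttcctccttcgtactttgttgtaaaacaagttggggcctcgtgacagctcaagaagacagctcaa
Kcna2: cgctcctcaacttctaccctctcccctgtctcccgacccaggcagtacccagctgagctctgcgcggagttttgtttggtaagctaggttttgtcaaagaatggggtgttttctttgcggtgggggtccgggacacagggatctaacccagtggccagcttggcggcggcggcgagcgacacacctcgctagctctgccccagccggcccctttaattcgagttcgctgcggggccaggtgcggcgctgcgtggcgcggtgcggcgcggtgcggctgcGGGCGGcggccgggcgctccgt
Kcns1: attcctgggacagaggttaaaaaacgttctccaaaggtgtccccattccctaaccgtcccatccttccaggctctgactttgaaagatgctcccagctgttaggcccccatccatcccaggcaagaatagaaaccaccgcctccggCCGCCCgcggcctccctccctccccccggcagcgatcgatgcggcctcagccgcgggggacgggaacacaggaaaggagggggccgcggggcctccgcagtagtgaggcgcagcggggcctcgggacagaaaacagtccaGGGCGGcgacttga
Kcna6: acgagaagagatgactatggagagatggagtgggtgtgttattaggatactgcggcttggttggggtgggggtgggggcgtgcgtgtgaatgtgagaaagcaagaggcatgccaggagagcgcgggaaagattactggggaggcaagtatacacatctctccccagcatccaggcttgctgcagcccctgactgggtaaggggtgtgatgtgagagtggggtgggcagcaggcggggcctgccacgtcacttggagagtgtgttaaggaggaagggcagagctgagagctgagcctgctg

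A GC box stood in 7 of the 12 member windows, of 6 genes (Kcna2, Kcna4, Kcnab1, Kcnab2, Kcns1 and Kcns3), against 35.7% of 32851 promoters in the table. The printed Kcna2 and Kcns3 windows held 1 box each, the Kcns1 window held 2, and the Kcna6 window held 0. The cAMP response element TGACGTCA and the AP-1 motif TGANTCA, each read on both strands, stood in 0 of the 12 windows, against 1.79% and 7.81% of all promoters. GC content was 47.0% in the printed Kcns3 window, 66.7% in that of Kcna2, 64.0% in that of Kcns1 and 58.3% in that of Kcna6, with a median of 52.7% over all promoters. The Kcns3 window that is not printed held 3 GC boxes and had a GC content of 74.0%. A match is a description of the letters in these windows, and a missing match says only that the letters are not there.

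On day 10 after pIONT, 8 of the 9 subunits fell and none rose. The exception was Kcna6, a Kv1 pore subunit whose level overlapped between the groups. Kcns3 and Kcns1 were reduced to 59.2% and 60.6% of the sham mean, Kcna2 to 67.0%, Kcnab2 to 72.7%, Kcnb2 to 73.4%, Kcna4 to 74.1%, Kcna1 to 82.7% and Kcnab1 to 83.5%, while Kcna6 stood at 108.6%. Over all 14672 genes tested, 12.3% were called lower and 10.5% higher. The groups' libraries did not overlap in the same 8 members, all lower in pIONT, against 24.7% of all genes not overlapping lower and 18.7% higher. The median log2 fold change was -0.40 over the members and -0.02 over all genes tested. Counts over a short list chosen by name, with earlier results of these data known, carry no test of their own here. In bulk RNA, fewer cells of a type and less RNA per cell cannot be told apart. How many of the 8 passed depended on single libraries, and so did the number of all genes called lower. That number was 1807 of 14672 with every library. Without sham 3, 3 members passed (Kcna2, Kcnb2 and Kcns3), and 767 of 14658 genes were called lower. With sham 1 and pIONT 2 both left out, 5 members passed, and 758 of 14594 genes were called lower.

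**Figure D1:**
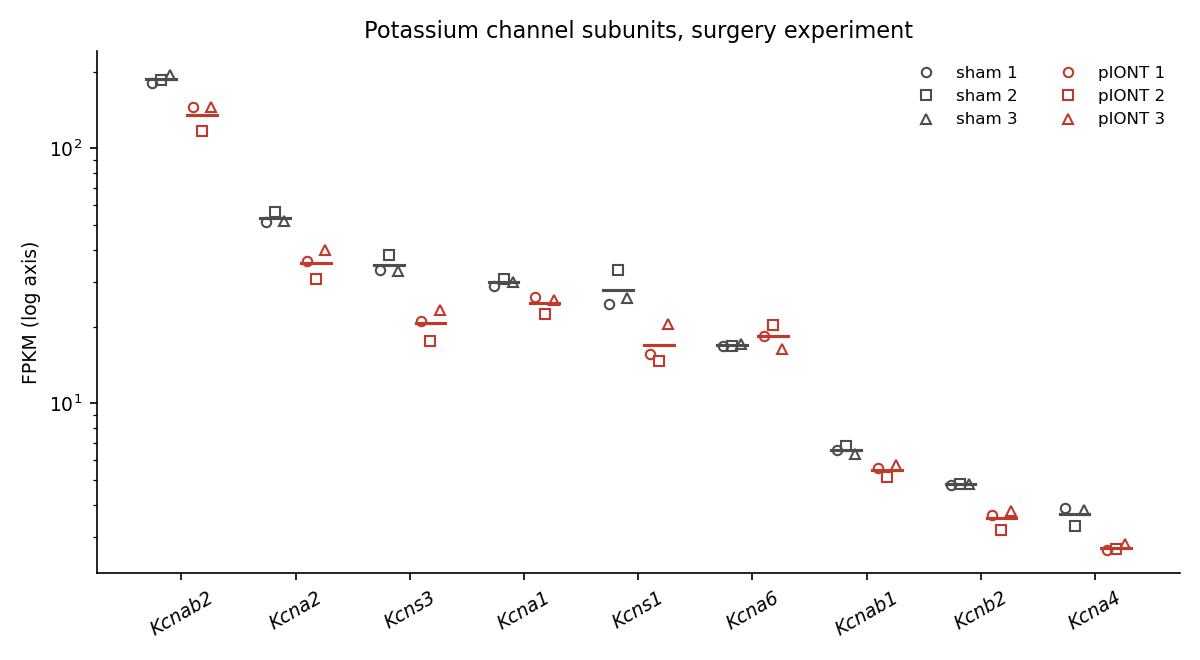
FPKM of the 9 subunits (log axis) in the 3 sham (grey) and 3 pIONT (red) libraries, with a horizontal line at each group mean and 1 symbol shape per replicate number. The pIONT libraries lie below the sham libraries for 8 genes, and for Kcna6 the sham values lie within the pIONT range of 16.3 to 20.3 FPKM.

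Among the Kv1 pore subunits, Kcna2 (Kv1.2, found on the axons of large sensory neurons; chr3:107101146-107115005, build GRCm38) was the most abundant and moved the most. It had 51.5, 56.1 and 52.0 FPKM in sham 1 to 3 and 36.1, 30.9 and 39.9 FPKM in pIONT 1 to 3. Every pIONT library was lower than every sham library, with pIONT 2 the lowest. Its mean fell from 53.2 ± 2.53 FPKM in sham to 35.6 ± 4.51 FPKM in pIONT (SD, n = 3). The log2 fold change, -0.58 (95% interval -0.79 to -0.36, SE 0.09, limma adjusted p = 0.0065), stayed called under all 16 alternatives, with fold changes of -0.66 to -0.48. Only 1.99% of the tested genes had a lower fold change.

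Kcna1 (Kv1.1, the usual partner of Kv1.2 in axonal channels; chr6:126640397-126646384) had 28.9, 30.7 and 29.8 FPKM in sham and 26.2, 22.4 and 25.4 FPKM in pIONT. The groups were separate by a narrower gap than those of Kcna2. Its mean fell from 29.8 ± 0.898 FPKM in sham to 24.6 ± 2.01 FPKM in pIONT (SD, n = 3), or -0.27 as log2 fold change (SE 0.06; adjusted p = 0.0251 by limma). The call was lost when any 1 sham library was left out and with a replicate block, with adjusted p of up to 0.083. Within each library the log2 ratio of Kcna2 to Kcna1 was 0.80 to 0.87 in sham and 0.47 to 0.65 in pIONT, so the ranges did not overlap. The difference in the mean ratio was -0.31 (two-sided exact permutation p = 0.1, the smallest that 3 against 3 allows, and 0.1 after adjustment over 5 ratios).

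Kcna4 (Kv1.4, a rapidly inactivating subunit of small sensory neurons; chr2:107290639-107298502) was the least abundant member, at 3.90, 3.30 and 3.82 FPKM in sham and 2.67, 2.69 and 2.80 FPKM in pIONT. The pIONT libraries lay close together and all below sham. Kcna4 fell with a log2 fold change of -0.37 (SE 0.07, 95% interval -0.54 to -0.20, limma adjusted p = 0.0128). The call was lost without sham 3 and with sham 1 and pIONT 2 both left out, at adjusted p of 0.0546 and 0.0874. It rests on 330 to 516 reads per library, the fewest of the members in this experiment.

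Kcna6 (Kv1.6, a Kv1 pore subunit able to join the same tetramers; chr6:126708329-126740674) had 16.8, 16.8 and 17.1 FPKM in sham and 18.4, 20.3 and 16.3 FPKM in pIONT. The sham libraries were nearly equal, pIONT 1 and pIONT 2 lay above them and pIONT 3 below. The log2 fold change was 0.11 (SE 0.08, 95% interval -0.07 to 0.29, limma adjusted p = 0.335), and it was called under 0 of 16 alternatives. As a share of the summed FPKM of the 4 Kv1 pore members, Kcna6 made up 16.3% ± 0.526 in sham and 22.7% ± 3.68 in pIONT (SD, n = 3). The share of Kcna2 was 51.4% ± 1.01 in sham and 43.7% ± 3.38 in pIONT. The log2 ratio of Kcna6 to Kcna1 was higher in pIONT by 0.39 in the mean and did not overlap between the groups (two-sided exact permutation p = 0.1, the smallest possible). Exons of Kcna6 share 39.6% of their bases with the antisense gene Gm26673 in GENCODE vM21, and no source used here says whether reads were counted by strand. Gm26673 itself fell from 1.50 ± 0.205 FPKM in sham to 0.872 ± 0.0966 FPKM in pIONT (SD, n = 3), by 0.54 on the log2 scale (adjusted p = 0.0138 by limma).

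Kcnb2 (Kv2.2, a delayed-rectifier pore subunit; chr1:15287254-15723750) had 4.79, 4.82 and 4.85 FPKM in sham and 3.66, 3.18 and 3.77 FPKM in pIONT. The sham libraries differed by far less than the gap to the highest pIONT library. Kcnb2 fell with a log2 fold change of -0.40 (SE 0.07, 95% interval -0.56 to -0.24, limma adjusted p = 0.00835) and was called under all 16 alternatives.

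Kcns3 (Kv9.3, a silent subunit that joins Kv2 tetramers; chr12:11090202-11151056) fell by the most in the main comparison, though without sham 1, without pIONT 3, or without both sham 1 and pIONT 2 the fold change of Kcns1 was the lower (-0.79, -0.85 and -0.70, against -0.78, -0.84 and -0.67 for Kcns3). Its level was 33.3, 38.1 and 33.0 FPKM in sham and 21.0, 17.5 and 23.2 FPKM in pIONT. The groups were far apart, and pIONT 2 was again the lowest. The log2 fold change was -0.75 (SE 0.11, 95% interval -1.0 to -0.50, limma adjusted p = 0.00472), it was called under all 16 alternatives, and 0.688% of tested genes had a lower one. The log2 ratio of Kcns3 to Kcnb2 was 2.76 to 2.98 in sham and 2.46 to 2.62 in pIONT. The groups did not overlap in this ratio, with a mean difference of -0.31 (two-sided exact permutation p = 0.1, the smallest possible).

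Kcns1 (Kv9.1, a silent subunit of large myelinated sensory neurons; chr2:164163619-164171113) had 24.5, 33.3 and 25.8 FPKM in sham and 15.5, 14.7 and 20.5 FPKM in pIONT. Sham 2 and pIONT 3 were high within their groups, and the groups still did not overlap. Kcns1 fell with a log2 fold change of -0.71 (SE 0.15, 95% interval -1.07 to -0.35, limma adjusted p = 0.0185). Its standard error was the largest of the 9, and adjusted p was 0.0515 to 0.0592 without sham 3, pIONT 1 or pIONT 2, and 0.064 with sham 1 and pIONT 2 both left out.

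Kcnab2 (Kv beta 2, the main beta subunit of axonal Kv1 channels; chr4:152390742-152477910) had the highest level of the 9 in every library. It had 180.0, 185 and 195 FPKM in sham and 145, 117 and 145 FPKM in pIONT. All pIONT libraries were below sham, pIONT 2 by the most. Kcnab2 fell with a log2 fold change of -0.46 (SE 0.09; 95% interval -0.67 to -0.26, limma adjusted p = 0.0116), with 1 alternative over the threshold, at 0.0511 without sham 3. Kcnab1 (Kv beta 1, which confers inactivation; chr3:64949196-65378223) had 6.57, 6.82 and 6.32 FPKM in sham and 5.57, 5.14 and 5.75 FPKM in pIONT. These groups were also separate, by the narrowest relative gap of the 8 called members. Kcnab1 fell with a log2 fold change of -0.24 (SE 0.06; adjusted p = 0.0264 by limma) and was called under 9 of 16 alternatives, with adjusted p of up to 0.123. The log2 ratio of Kcnab2 to Kcnab1 differed by -0.20 in the mean, again with separate groups (two-sided exact permutation p = 0.1, the smallest possible).

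**Figure D2:**
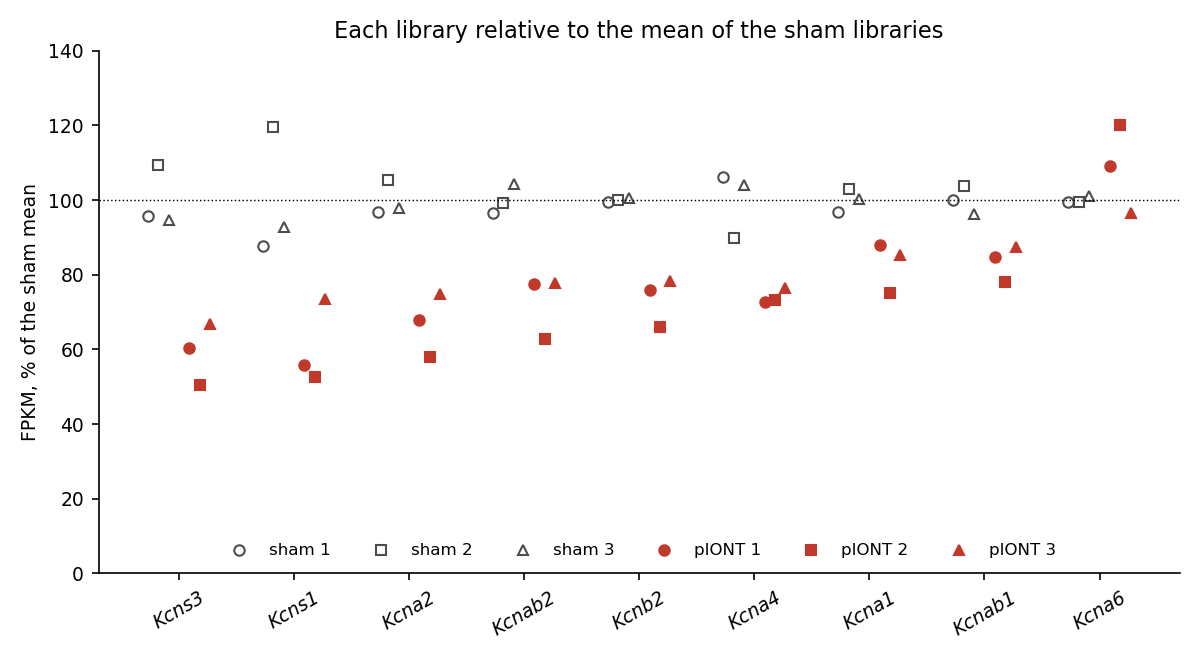
Level of each subunit in each library as a percent of the mean of the 3 sham libraries (dotted line at 100), sham in open grey symbols and pIONT in filled red symbols. Apart from Kcna6, every red symbol lies under every grey one of the same gene, and the red symbols of these 8 genes run from 50.4% (Kcns3 in pIONT 2) to 87.8% (Kcna1 in pIONT 1).

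The pIONT libraries kept a common order in most members. Of the 9 subunits, pIONT 2 was the lowest pIONT library in 7 and the highest in 1 (Kcna6), and pIONT 3 was the highest in 7. The same libraries stood at the ends of the injury list, 12 genes that sensory neurons switch on after axon damage (Atf3, Sprr1a and Gal among them), with a summed FPKM of 199 to 200.2 in sham, 3353 in pIONT 2, 2551 in pIONT 1 and 2137 in pIONT 3. The macrophage sum was also highest in pIONT 2. With 3 libraries a group this is a description, and the part of these differences in the subunits' levels was not tested.

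The order of levels per gene length differed between the groups in its middle. In sham it ran Kcnab2, Kcna2, Kcns3, Kcna1, Kcns1, Kcna6, Kcnab1, Kcnb2 and Kcna4 by FPKM, and only Kcna1 and Kcns1 overlapped as neighbours. In pIONT, Kcns3 stood below Kcna1 and Kcns1 below Kcna6, but Kcna1 (24.6 FPKM), Kcns3 (20.6), Kcna6 (18.4) and Kcns1 (16.9) overlapped each with the next, and the other neighbours stayed apart. These levels depend on the length used: with the mean transcript length in place of the union of exons, the sham mean of Kcnab2 became 793 FPKM from 187, that of Kcna1 53.9 from 29.8 and that of Kcns3 43.6 from 34.8, so Kcna1 then stood above Kcns3.

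Other subunits of the same families were mostly scarce. Of 14 listed relatives, 7 reached the mean of 0.5 FPKM needed for a test, and 3 of those 7 fell and 0 rose, with a median log2 fold change of -0.30. Kcng4 (Kv6.4, a silent subunit) had 7.90, 7.67 and 8.25 FPKM in sham and 4.65, 3.70 and 4.61 FPKM in pIONT. Its groups were well apart, and its log2 fold change of -0.81 (limma adjusted p = 0.00163) was larger than that of any member. Kcnv1 (Kv8.1, silent) fell with a log2 fold change of -0.30 (limma adjusted p = 0.0412). The values of those not called were -0.35 for Kcng2, -0.24 for Kcnf1, -0.21 for Kcnab3 and -0.07 for Kcns2, with limma adjusted p of 0.128, 0.0601, 0.145 and 0.638. Kcna3, Kcna5, Kcna7, Kcna10, Kcng1, Kcng3 and Kcnv2 stayed under the minimum.

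Of 11 genes of proteins found with Kv1 channels on axons, 7 fell and 0 rose, with a median log2 fold change of -0.33. Lgi3, which encodes a secreted LGI protein of the Kv1 complex, had 61.7, 63.9 and 64.5 FPKM in sham and 36.2, 27.0 and 39.2 FPKM in pIONT. The groups were far apart, with a log2 fold change of -0.90 (limma adjusted p = 0.00464). On the log2 scale Lgi2, of the same family, fell by 0.74, Dlg4, the scaffold PSD-95, by 0.34, and Adam23, an LGI receptor, by 0.33, with limma adjusted p of 0.00464, 0.00884 and 0.0111. Cntnap2, which encodes Caspr2, fell by 0.36 (adjusted p = 0.0163 by limma), and Epb41l3 and Dlg2 fell by 0.33 and 0.29. Its partner Cntn2, contactin-2, stood at 38.9 to 39.4 FPKM in sham and 38.1 to 43.7 FPKM in pIONT, with a log2 fold change of 0.04 (95% interval -0.09 to 0.18, limma adjusted p = 0.604). Lgi1, Adam22 and Dlg1 were not called, at -0.03, -0.12 and 0.07. Of 3 proteins of Kv2 clusters, 0 were called: Amigo1, a Kv2 auxiliary subunit, had a log2 fold change of -0.17, Vapa 0.11 and Vapb -0.06, with limma adjusted p of 0.109, 0.11 and 0.261 and unadjusted p under 0.05 for the first pair.

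**Figure D3:**
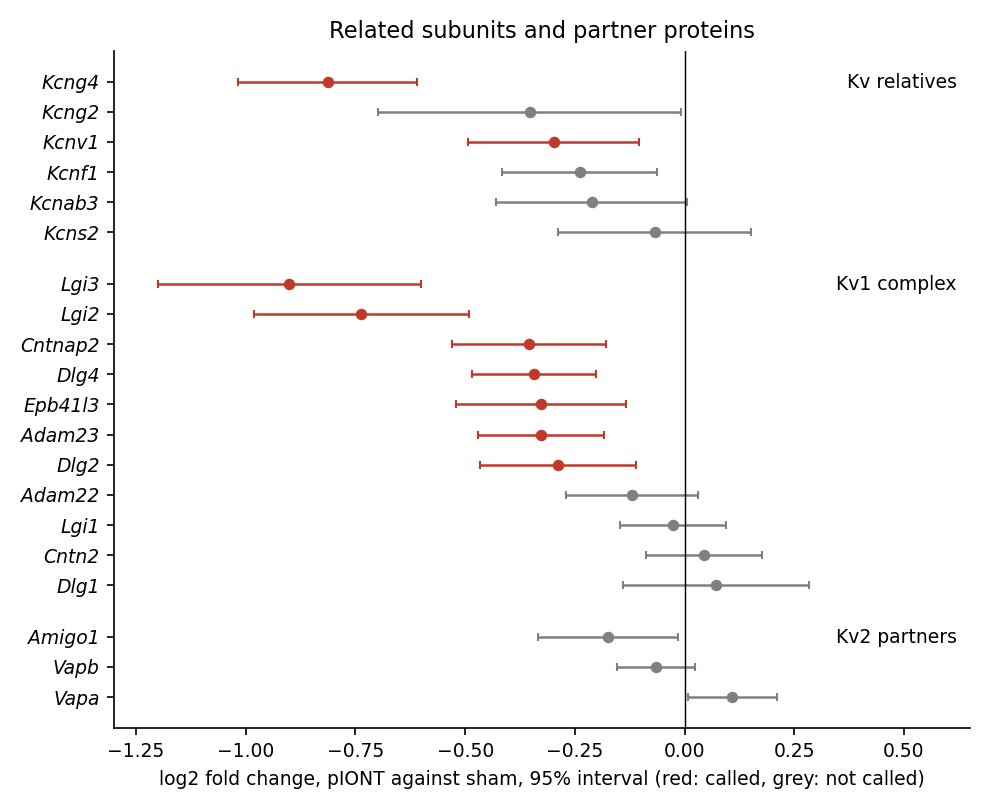
log2 fold change, pIONT against sham, with 95% intervals, of 6 of the 7 tested relatives, the Kv1 complex genes and the Kv2 partners; red marks called genes and grey those not called. Lgi3 and Kcng4 lie farthest to the left, at -0.90 and -0.81, and the Kv2 partners lie within 0.17 of 0.

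Markers of sensory neurons moved too. Of 12 markers of large myelinated sensory neurons, 7 fell and 1 rose (median log2 fold change -0.31), with summed levels of 3210 to 3519 FPKM in sham and 2635 to 2860 FPKM in pIONT. Pvalb, which encodes parvalbumin, fell by 1.41 on the log2 scale, Necab2 by 0.52 and Nefh by 0.43, while Spp1 rose by 0.69 (limma adjusted p of 0.00618, 0.00261, 0.00808 and 0.0121). Of 12 markers of small nociceptive and thermosensitive neurons, 7 fell and 0 rose (median -0.32), with sums of 843 to 920 FPKM in sham and 656 to 770 FPKM in pIONT, and with Trpm8, the cold receptor, down by 1.10 (limma adjusted p = 0.00472). Of 12 genes of all sensory neurons, 2 fell (Snap25 and Rbfox3) and 6 rose (Tubb3 and Tubb2a the most, by 0.89 and 0.95), and their sum went from 3808 to 4109 FPKM in sham to 5384 to 5688 FPKM in pIONT. The members' own median was -0.40, and the part of these neuronal changes in the subunits' fall was not tested.

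Markers of other cells were mixed. Of 12 myelin genes of Schwann cells, 7 fell and 0 rose (summed 4675 to 5168 FPKM in sham, 3875 to 4146 FPKM in pIONT). Of 11 macrophage genes, 0 fell and 7 rose (summed 166 to 307 FPKM in sham, 358 to 866 FPKM in pIONT), and of 10 tested satellite glia genes 1 fell and 2 rose. Of 6 tested genes of the brainstem root 1 fell (Aldoc), and of 5 pituitary and 9 fibroblast genes 0 were called. Opalin, Npy, Kcna3 and Kcnv2 were at 0 in at least 1 library of this experiment. With sham 1 and pIONT 2 both left out, 5 of the 8 members stayed called (Kcna1, Kcna2, Kcnab2, Kcnb2 and Kcns3). In that fit 758 of 14594 genes were called lower. The macrophage sum still differed between the libraries kept, at 166 and 201 FPKM in sham 2 and 3 and 402 and 358 FPKM in pIONT 1 and 3. The part of these changes in the subunits' levels was not tested.

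The 5 genes whose levels followed the mean standardized profile of the 9 members most closely over the 6 surgery libraries were Mta3, Trarg1, Depdc5, Slc9a3r2 and 6430571L13Rik. Their Pearson r was 0.999, 0.999, 0.998, 0.998 and 0.997 among 7718 genes with a mean of at least 5 FPKM. The likeness includes the difference between the groups and is given as a description.

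The injection experiment asked whether UCN1 in the ganglion changed the subunits within 6 hours. None of the 9 was called by limma (lowest unadjusted p = 0.125, for Kcnab2, so 0 of 9 under 0.05), and limma with voom on recovered reads called 0 as well. Few genes were called at all, 0.297% lower and 0.304% higher of 16139 tested, or 97 genes, with 2113 at an unadjusted p under 0.05. In Kcna6, Kcnab2 and Kcns1 the UCN1 libraries were both higher than the PBS libraries, and no member was lower without overlap. That is 3 of 9, where 21.8% of all genes did not overlap higher and 23.7% lower. The median log2 fold change of the members was 0.08.

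**Figure D4:**
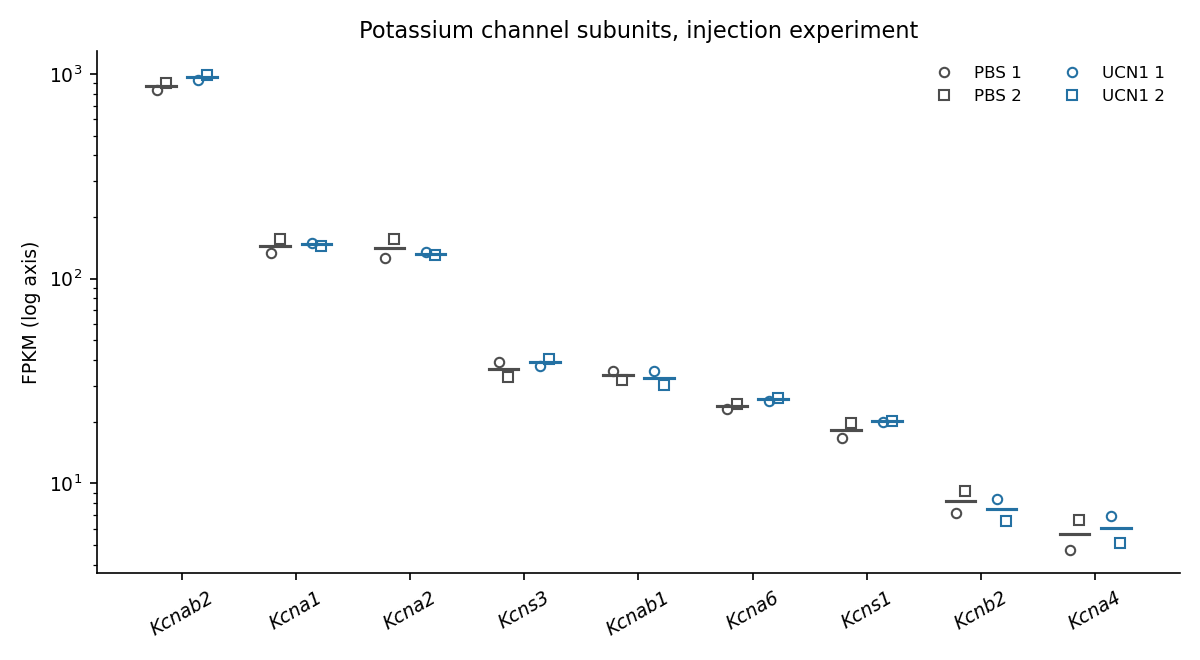
FPKM of the 9 subunits (log axis) in the 2 PBS (grey) and 2 UCN1 (blue) libraries, with a horizontal line at each group mean. Symbols of the groups overlap in 6 genes, and in Kcna6, Kcnab2 and Kcns1 the UCN1 symbols are slightly higher.

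None of the Kv1 pore subunits was called, and their fold changes were small beside their intervals. Kcna1 had 134 and 156 FPKM after PBS and 149 and 145 FPKM after UCN1, a log2 fold change of 0.02 (95% interval -0.20 to 0.24, limma adjusted p = 0.944). Kcna2 had 126 and 156 FPKM after PBS and 134 and 130.0 FPKM after UCN1 (-0.09, interval -0.34 to 0.16, limma adjusted p = 0.773). In both genes the UCN1 values lay between the PBS values. Kcna4 had 4.74 and 6.59 FPKM after PBS and 6.93 and 5.12 FPKM after UCN1, with the widest interval of the 9, -0.40 to 0.57 around 0.08. Kcna6 had 23.2 and 24.3 FPKM after PBS and 25.3 and 26.1 FPKM after UCN1, a log2 fold change of 0.11 (interval -0.12 to 0.35, limma adjusted p = 0.684), so its small gap lay within the error of the fit.

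Among Kv2 and silent subunits, Kcnb2 had 7.16 and 9.14 FPKM after PBS and 8.39 and 6.56 FPKM after UCN1, a log2 fold change of -0.12 (95% interval -0.53 to 0.30). Kcns1 had 16.7 and 19.8 FPKM after PBS and 20.002 and 20.14 FPKM after UCN1, a log2 fold change of 0.14 (interval -0.14 to 0.42). The PBS libraries of both genes differed more from each other than the group means did. Kcns3 had 39.2 and 33.0 FPKM after PBS and 37.5 and 40.3 FPKM after UCN1, a log2 fold change of 0.11 (interval -0.15 to 0.37). Limma adjusted p was 0.827, 0.670 and 0.713 for the 3 genes. The beta subunit Kcnab2 had 834 and 905 FPKM after PBS and 929.8 and 995 FPKM after UCN1, a log2 fold change of 0.15 (interval -0.05 to 0.34, limma adjusted p = 0.505). Kcnab1 had 35.4 and 32.1 FPKM after PBS and 35.2 and 30.3 FPKM after UCN1, with -0.04 (interval -0.31 to 0.22, limma adjusted p = 0.902). These intervals do not show that UCN1 left the subunits as they were; for Kcna4, Kcnab1 and Kcnb2 they reach the size of the falls after pIONT.

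**Figure D5:**
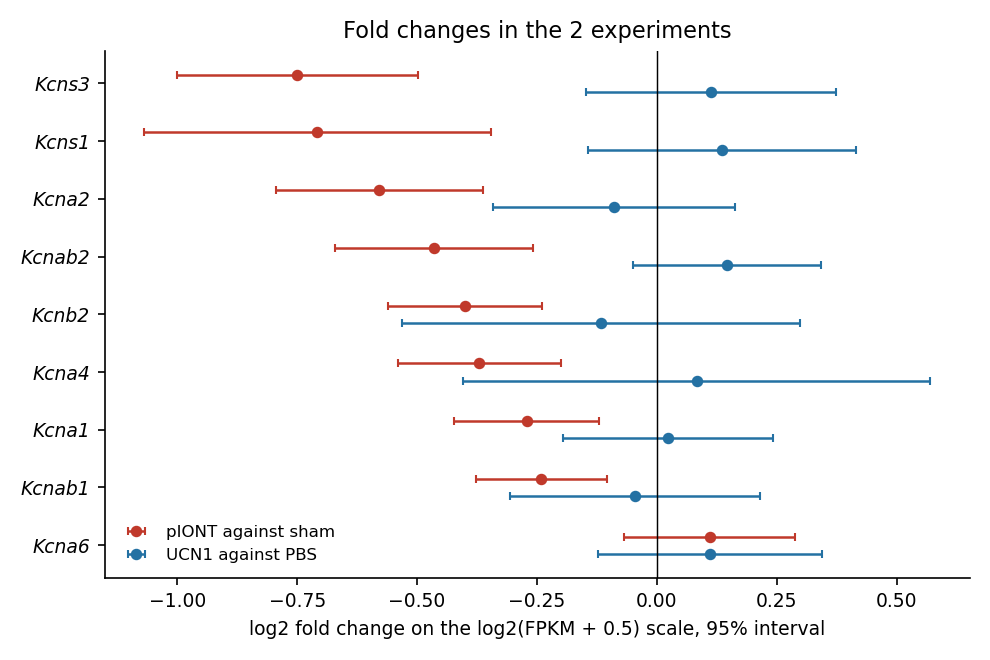
log2 fold change of each subunit after pIONT (red) and after UCN1 (blue), with 95% intervals, on the log2(FPKM + 0.5) scale. The red intervals of 8 subunits lie wholly below 0, and all 9 blue intervals cross 0.

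Relatives and partners were also not called after UCN1, with 0 of 10 tested relatives, 0 of 11 Kv1 complex genes and 0 of 3 Kv2 partners. Of the injury list 1 of 9 tested genes rose, Atf3, by 1.18 as log2 fold change (adjusted p = 0.0179 by limma). In the lists of neurons, satellite glia, Schwann cells and macrophages 0 genes were called, while 3 of 5 pituitary genes (Gh, Prl and Pomc) and 3 of 9 fibroblast genes (Mfap4, Fmod and Slc47a1) fell and 1 of 5 brainstem genes, Gfap, rose. The pituitary sum also varied among the untreated sham libraries of the other experiment, from 80.8 to 767 FPKM. Whether these calls reflect UCN1 or the tissue in each library was not tested. Whether the subunits responded differently to pIONT and to UCN1 was not tested, since the tables differ in gene length, annotation, depth and number of libraries.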

How the data were processed

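Gene expression in 10 bulk libraries of mouse trigeminal ganglion was taken from 2 tables that the authors deposited in FPKM, 1 per experiment. Per the submitters' processing notes, the tools were DESeq2, HTSeq and STAR and the build was GRCm39; versions, roles, strand setting and filters were not stated. Identifiers were matched to GENCODE vM21 (GRCm38), in which 99.4% of the injection table and 1.99% of the surgery table had the same start and end, so coordinates printed for genes are those of the injection table. Low values were whole reads, within 0.1 reads up to 20 reads, for 92.4% to 92.9% of them in the surgery table with the union of exons as length, and for 98.8% to 99.0% in the injection table with the mean transcript length. All tests were therefore kept within a table. Per the labels' protocols, TRIzol was used for extraction and a NEBNext Ultra II kit for the libraries.

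Genes with a mean of at least 0.5 FPKM entered limma 3.58.1 (R 4.3.3) as log2(FPKM + 0.5), with eBayes trend, no covariate, two-sided, and Benjamini-Hochberg adjustment over all genes tested. Libraries of a group differed by more than sampling noise (chi-square per degree of freedom 6.72 to 18.3). The fit was also run on simulated reads, with the same spread setting for every gene and no library standing apart. That run does not show how the fit performs on libraries like these. Ratios were compared with exact permutation tests. Alternatives were other pseudocounts, filters and scalings, no trend, voom on recovered reads, a replicate block and leaving out libraries.

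The 9 members and the lists were chosen with earlier results of these data known. Genes named are the members, up to 4 called genes per list by smallest p, or up to 2 of the highest level where none was called, genes that a result turns on, and the 5 genes most like the members. Other genes were named after their values were seen. A few listed genes are counted but not reported here by name.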

Additional observations from a re-analysis of the deposited data

How the results depend on the processing

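In the surgery experiment, 8 members were called lower and 0 higher with both other pseudocounts, both other filters, TPM and median-of-ratios scaling, no trend and voom on recovered reads, and no log2 fold change of a member turned its sign under any of the 16 alternatives. Leaving out 1 library gave 3 (without sham 3) to 8 members lower and 1689 (without sham 3) to 2969 (without pIONT 3) genes called, against 3344; the count was 2076 without sham 2. Leaving out both sham 1 and pIONT 2, chosen after seeing the data, gave 1656 genes and 5 members. The replicate block gave 2085 genes and 6 members lower, without Kcna1 and Kcnab1 (adjusted p of 0.067 and 0.0826). Same-numbered deviations from the group means had r of -0.06, -0.20 and 0.07, and 0.04 in the injection experiment. Such deviations sum to 0 within a group. With 2 or 3 libraries a group, these values cannot decide whether replicate numbers pair the libraries. In the injection experiment 0 members were called under each of 13 alternatives, while the count of genes, 97, became 2 with no filter, 155 with a filter at 2 FPKM, 5 with no trend, 351 with voom, 260 with the replicate block and 5 to 38 with 1 library left out. The causes were not tested. A lone library left in a group is assumed to vary like the others. Of surgery calls, 46.0% were higher, against 36.7% with TPM and 54.5% with median-of-ratios scaling. With 2 or 3 libraries a group, precision is limited. The chi-square per degree of freedom, 6.72 to 18.3, is a value per pair of libraries. It cannot say whether spread or reads limits a given member more, since it is not split by member. In pIONT, Kcna4 was 2.72 ± 0.0712 FPKM on 330 to 401 reads (SD, n = 3). Kcns1 was 16.9 ± 3.14 FPKM there on 1078 to 1644 reads. Each member had 192 or more reads in every library.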

Other observations

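Reads per M (1e6) reads in genes were recovered from FPKM with a gene length from GENCODE vM21. That length was the union of exons for surgery and the mean transcript length for injection, or 4780 and 2642 bases for Kcna1. Levels of the control groups set side by side in this unit rest on those lengths. The tables were also processed separately and come from libraries that differ in procedure and time. Kcna1 had 138 to 147 reads per M in the 3 sham libraries and 354 and 412 in the 2 PBS libraries, a log2 difference of 1.43, above that of 99.9% of the 7488 genes with at least 20 reads per M in both. The median of those genes was 0.03, and their 5th and 95th percentiles were -0.86 and 0.66. Kcna6, which lies on the same chromosome, had 99.9 to 102 in sham and 99.8 and 105 in PBS, and the other members differed by -0.61 (Kcns1) to 0.57 (Kcnab1). No test can be made between the tables, and the difference in Kcna1 is given as a value only. Kcna2 exceeded Kcna1 in FPKM in all 6 surgery libraries, with log2 ratios of 0.47 to 0.87. In the injection experiment the log2 ratio was -0.08 to 0.00 after PBS and -0.16 to -0.15 after UCN1, without overlap. The difference in the mean was -0.11 (two-sided exact permutation p = 0.33, the smallest that 2 against 2 allows, and 0.83 after adjustment over 5 ratios). These FPKM ratios depend on the gene length, which was defined differently in the 2 experiments, so they cannot be compared between them.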
